A study of Homo sapiens with 9 samples.

Results

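The transcripts of 10 genes that report on and restrain the ERK pathway were followed in the human breast adenocarcinoma line MDA-MB-468, an established culture. They are the dual-specificity phosphatases DUSP4, DUSP5 and DUSP6, the receptor-signalling inhibitors SPRY2, SPRY4, SPRED1 and SPRED2, the ETS transcription factors ETV4 and ETV5, and PHLDA1. The genes were chosen by symbol as known feedback and output genes of the pathway, by a rule that uses no values but was written with earlier results of these data known, and all 10 of 10 were found among the 56809 genes of the deposited count table. Each of the 10 passed the filter on low counts and was tested. The cells carried the empty hairpin vector pSicoR (control, 3 libraries), the hairpin shLMO2-1 (3 libraries) or the hairpin shLMO2-2 (3 libraries). All 9 libraries therefore came from 1 cell line infected with the same vector backbone, and both hairpins are compared with the same 3 control libraries. LMO2, the gene both hairpins are named for, is a LIM-domain cofactor that bridges DNA-binding proteins. The labels give no time after infection and do not say whether libraries of a group came from separate infections or cultures, so p-values measure only the spread between these libraries.

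When a growth factor receptor is activated, RAS, RAF, MEK and ERK are switched on in turn, and ERK enters the nucleus and changes transcription. Among the genes it induces are its own brakes. DUSP phosphatases remove the activating phosphates from ERK and its relatives, Sprouty proteins hold back signalling between the receptor and RAF, and SPRED proteins bring the RAS-inactivating protein neurofibromin to the membrane. ETV4 and ETV5 carry the signal on as transcription factors, and they are held down by the repressor CIC until ERK relieves it. Because their transcripts rise and fall with ERK activity, these genes are widely read as a gauge of the pathway. MDA-MB-468 cells are known for a very high number of EGFR copies, and EGFR is an upstream receptor of the pathway. Only transcripts were measured here, so nothing below is a measurement of ERK phosphorylation.

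The libraries held between 15494486 and 23069456 counts. LMO2 was scarce, with 4, 35 and 19 counts in control replicates 1 to 3, 2, 1 and 6 in shLMO2-1, and 1, 4 and 3 in shLMO2-2. It was lower with shLMO2-2 (log2 fold change -3.02 ± 0.819 SE, adjusted p = 0.0441), but that call was lost in 7 of the 9 fits that left out 1 library, with an adjusted p of up to 0.138, and held without control replicate 1 or shLMO2-1 replicate 3. With shLMO2-1 the log2 fold change was -2.44 ± 0.813 (adjusted p = 0.0907), and among the same 9 fits it passed the threshold only without control replicate 1 (adjusted p = 0.0268). For the mean of both hairpins it was -2.73 ± 0.656 (edgeR adjusted p = 0.0216). That call was lost in 3 of the 9 fits, at an adjusted p of up to 0.113. Control replicate 1, with 4 LMO2 counts, lay below shLMO2-1 replicate 3, with 6, and it also lay farthest out on the leading principal component, which held 26.8% of the variance. For the 10 genes, results that depend on this library are given with and without it. All 10 epithelial markers examined were measured, and their sum was 14168 to 14959 CPM in control, 16283 to 17401 in shLMO2-1 and 15765 to 17765 in shLMO2-2. Of the 10, 2 were called higher (KRT8 and EGFR) and 2 lower (KRT5 and KRT14) with shLMO2-1, 3 higher and 1 lower with shLMO2-2, and EGFR alone held a mean of 5471 CPM of the sum in control and 7507 in shLMO2-1. CPM expresses counts relative to library size, which was adjusted by the trimmed mean of M-values (TMM). Of 6 leukocyte markers, 3 were at 0 in every library, and the sum was 1.48 to 2.15 CPM in control, 3.16 to 5.74 in shLMO2-1 and 3.95 to 4.52 in shLMO2-2. CD14 and CD68 made up the tested part of that list. Both were called higher with shLMO2-1 and for the mean of both hairpins, and 1 of them with shLMO2-2. Their log2 fold changes were 1.21 to 1.49 with shLMO2-1 and 1.15 to 1.21 with shLMO2-2. The sum of 6 endothelial markers was 7.18 to 14.1 CPM in control, 13.6 to 19.4 in shLMO2-1 and 8.63 to 11.3 in shLMO2-2, and that of 7 fibroblast markers 11.3 to 15.4, 13.1 to 17.6 and 15.1 to 16.9, with none of their tested genes called. The part of these transcripts in the results was not tested. In bulk RNA, fewer cells with a transcript and less transcript per cell cannot be told apart.

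In shLMO2-1 cells, DUSP6, SPRY2, ETV4 and ETV5 rose, and none of the 10 genes fell. In shLMO2-2 cells DUSP6 alone passed the threshold, at 1.41-fold against 1.95-fold with shLMO2-1, a difference between the hairpins that did not itself pass (adjusted p = 0.158). Calls are from edgeR's quasi-likelihood test at a Benjamini-Hochberg adjusted p under 0.05 over all 14709 tested genes. This fit does not use the replicate numbers of the libraries. When they were added as a block, SPRY2 and ETV4 also passed with shLMO2-2 (adjusted p = 0.0368 and 0.0381), where 2377 of all tested genes were called. The counts that follow are from the fit without the block. The 4 of 10 called with shLMO2-1 stand against a background of 8.42% of all tested genes called in that comparison (4.54% higher and 3.88% lower). With shLMO2-2, 1 of 10 was called where 8.97% of all genes were (4.94% higher, 4.04% lower), which is near the background. In the mean of both hairpins against control, DUSP6, SPRY2 and ETV4 rose, 3 of 10 against 12.4% of all genes (6.47% higher, 5.93% lower). DUSP6 was the single gene of the 10 called higher with each hairpin, as 2.6% of all tested genes were. The median log2 fold change of the 10 genes was 0.44 with shLMO2-1, 0.13 with shLMO2-2 and 0.22 for the mean, while the median of all tested genes was 0.00 in each.

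**Figure D1:**
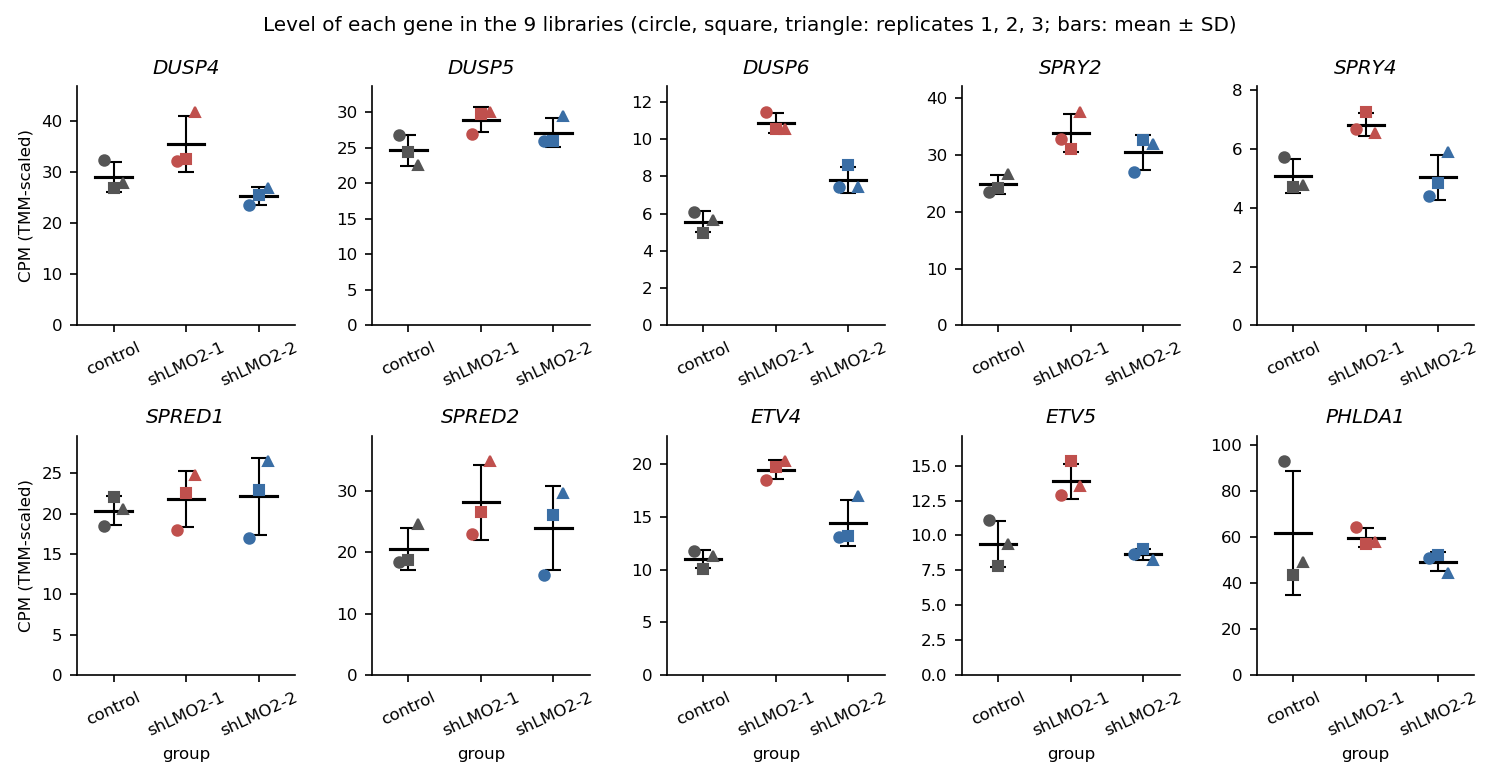
Level of each of the 10 genes in CPM (TMM-scaled, linear axes from 0) in the 3 libraries of each group, with the group mean and SD as bars. For DUSP6, ETV4 and SPRY2 every hairpin library lies above every control library, and for PHLDA1 control replicate 1 stands alone at 92.7 CPM.

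DUSP6 is a cytoplasmic phosphatase with a strong preference for ERK. It lies on chromosome 12 at 89347232 to 89353271 (minus strand, GENCODE 29, GRCh38), a gene whose longest coding transcript has 3 exons. The 30 bases just before its RefSeq start, which lies within the annotated span of the gene, are given 5′ to 3′ on the gene's strand.
DUSP6 (GRCh38.p14, chr12:89352502-89352531, minus strand): aatgtatccattgagacgctcgctgtttgt
In GENCODE 29 this stretch lies in a 5′ untranslated exon of another DUSP6 transcript. DUSP6 was at 6.09, 4.97 and 5.66 CPM in control replicates 1 to 3, at 11.5, 10.5 and 10.5 CPM in shLMO2-1, and at 7.44, 8.63 and 7.41 CPM in shLMO2-2. The 3 groups did not overlap, with shLMO2-1 highest, shLMO2-2 between and control lowest. The rise was 1.95-fold with shLMO2-1 (log2 fold change 0.96 ± 0.133 SE, edgeR adjusted p = 0.0018) and 1.41-fold with shLMO2-2 (0.49 ± 0.133, adjusted p = 0.0431). The shLMO2-1 call held in each of 18 alternative fits. The shLMO2-2 call was lost in 8 of the 9 fits that left out 1 library, with adjusted p from 0.0598 to 0.158, and held only without control replicate 1 (0.55, adjusted p = 0.0473). The difference stayed between 0.41 and 0.55 in those 9 fits. For the mean of both hairpins it was 0.73 ± 0.118 (edgeR adjusted p = 0.00324), a call that held in each of 17 alternative fits. These values rest on 97 to 204 counts per library.

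DUSP4 and DUSP5 act in the nucleus, and DUSP5 is specific for ERK. DUSP4 (chromosome 8, 29333064 to 29350668, minus strand) was at 32.3, 26.8 and 27.9 CPM in control, 32.1, 32.6 and 41.8 in shLMO2-1 and 23.5, 25.5 and 26.9 in shLMO2-2. The shLMO2-1 mean lay above and the shLMO2-2 mean below that of the controls, and each group overlapped the controls. Its log2 fold change was 0.29 ± 0.119 with shLMO2-1 (adjusted p = 0.16) and -0.20 ± 0.119 with shLMO2-2 (adjusted p = 0.343). DUSP5 (chromosome 10, 110497838 to 110511544, plus strand) was at 26.8, 24.4 and 22.6 CPM in control, 26.9, 29.8 and 30.1 in shLMO2-1 and 25.9, 25.9 and 29.4 in shLMO2-2. Its shLMO2-1 libraries lay just above the controls, with a log2 fold change of 0.23 ± 0.0967 that missed the threshold (adjusted p = 0.165).

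Sprouty proteins were represented by SPRY2 and SPRY4. SPRY2 lies on chromosome 13 (80335976 to 80340951, minus strand). It was at 23.5, 24.1 and 26.6 CPM in control, 32.8, 31.1 and 37.6 in shLMO2-1, and 26.9, 32.6 and 31.9 in shLMO2-2. All 6 hairpin libraries lay above all 3 controls, the lowest of them shLMO2-2 replicate 1 by a narrow margin. The log2 fold change was 0.45 ± 0.106 with shLMO2-1 (edgeR adjusted p = 0.0272), 0.30 ± 0.105 with shLMO2-2 (adjusted p = 0.105) and 0.37 ± 0.0925 for the mean of both (adjusted p = 0.0249). Leaving out control replicate 2 raised the adjusted p with shLMO2-1 to 0.0714, leaving out shLMO2-1 replicate 1 raised it to 0.0614, and leaving out shLMO2-1 replicate 3 to 0.1, so the call was lost in each. For the mean the adjusted p became 0.0652 when control replicate 1 was left out, 0.0709 for control replicate 2, 0.0605 for shLMO2-2 replicate 2 and 0.0541 for shLMO2-2 replicate 3. The log2 fold change stayed between 0.37 and 0.50 for shLMO2-1 and between 0.33 and 0.43 for the mean in these fits.

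SPRY4 (chromosome 5, 142310427 to 142326455, minus strand) was at 5.74, 4.72 and 4.76 CPM in control, 6.69, 7.27 and 6.53 in shLMO2-1, and 4.39, 4.83 and 5.89 in shLMO2-2. The shLMO2-1 libraries lay above both other groups, while shLMO2-2 sat at the control level. The difference with shLMO2-1 was 0.43 ± 0.161 on the log2 scale and did not pass (adjusted p = 0.13). With shLMO2-2 it was -0.01, with a 95% interval from -0.36 to 0.35. SPRY4 gave 90 to 131 counts per library, among the fewest of the 10 genes.

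Neither SPRED gene passed the threshold in the fit reported here. SPRED1 (chromosome 15, 38252326 to 38357249, plus strand) was at 18.4, 22.1 and 20.6 CPM in control, 18, 22.6 and 24.7 in shLMO2-1, and 17.0, 22.9 and 26.5 in shLMO2-2. Its 3 groups overlapped throughout, with log2 fold changes of 0.09 (95% interval -0.27 to 0.46) with shLMO2-1 and 0.12 (-0.24 to 0.48) with shLMO2-2. SPRED2 (chromosome 2, 65310851 to 65432637, minus strand) was at 18.4, 18.7 and 24.6 CPM in control, 23.1, 26.5 and 34.8 in shLMO2-1, and 16.3, 26.0 and 29.6 in shLMO2-2. The coefficient of variation of SPRED2 reached 28.7% in shLMO2-2, and its log2 fold change of 0.45 ± 0.218 with shLMO2-1, the same size as that of SPRY2, had an adjusted p of 0.238. When no filter on low counts was applied, SPRED2 passed with shLMO2-1 (adjusted p = 0.0186) and for the mean of both (0.0456).

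Both ETS factors were called higher in shLMO2-1 cells, and ETV4 held its call under more settings than ETV5. ETV4 (chromosome 17, 43527844 to 43579620, minus strand) was at 11.8, 10.1 and 11.3 CPM in control, 18.4, 19.7 and 20.2 in shLMO2-1, and 13.1, 13.2 and 17.0 in shLMO2-2. Its 3 groups did not overlap, in the same order as for DUSP6. The rise was 1.76-fold with shLMO2-1 (log2 fold change 0.82 ± 0.125 SE, edgeR adjusted p = 0.00324) and held in each of 18 alternative fits. With shLMO2-2 the log2 fold change was 0.39 ± 0.125, with an adjusted p of 0.0825. For the mean of both hairpins it was 0.60 ± 0.111 (edgeR adjusted p = 0.00626), a call that held in each of 17 alternative fits. ETV4 overlaps DHX8 on the opposite strand, and the use of strand in counting is not given in the sources used here, so the reads of these genes may not be fully separated. DHX8 itself was at 48.9 to 61.1 CPM, with log2 fold changes of -0.10 and -0.13 against control (adjusted p = 0.444 and 0.316).

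ETV5 is the nearest relative of ETV4 in the list, and it passed the threshold with shLMO2-1 and not with shLMO2-2. ETV5 (chromosome 3, 186046308 to 186110318, minus strand) was at 11.1, 7.79 and 9.36 CPM in control, 12.9, 15.3 and 13.5 in shLMO2-1, and 8.70, 9.05 and 8.27 in shLMO2-2. Every shLMO2-1 library lay above every library of the other groups, and the shLMO2-2 libraries lay within the control range. Its log2 fold change was 0.57 ± 0.141 SE with shLMO2-1 (adjusted p = 0.033) and -0.12 ± 0.142 with shLMO2-2 (adjusted p = 0.665). The shLMO2-1 call was lost in 7 of the 9 fits that left out 1 library, at adjusted p from 0.0505 to 0.129, and held without control replicate 1 (0.69, adjusted p = 0.0127) or shLMO2-2 replicate 3. In those 9 fits the log2 fold change was 0.45 to 0.69.

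PHLDA1, a pleckstrin-homology-like protein whose transcript is a marker of MEK and ERK output, did not follow the others. PHLDA1 (chromosome 12, 76025447 to 76033932, minus strand) was at 92.7, 43.5 and 48.9 CPM in control, 64.4, 56.7 and 58.0 in shLMO2-1, and 51.0, 52.3 and 44.5 in shLMO2-2. Control replicate 1 lay far above the other libraries, and the coefficient of variation of the controls was 43.7%. With all libraries the log2 fold change was -0.04 ± 0.225 with shLMO2-1 (adjusted p = 0.935) and -0.32 ± 0.224 with shLMO2-2 (adjusted p = 0.414). Without control replicate 1 the value for shLMO2-1 turned to 0.36 and passed the threshold (adjusted p = 0.0382), and that for shLMO2-2 was 0.09 (adjusted p = 0.645). The direction of PHLDA1 against control thus rests on 1 library. Fractional counts occurred for PHLDA1 in all 9 libraries, up to 0.495 from a whole number, and for DUSP6 in 6, up to 0.408. Counts take such values when reads are divided among transcripts. Those of ETV4 in 7 libraries, and of SPRY4, SPRED1 and SPRED2 in 1 each, were at most 0.001 from a whole number. PHLDA1 also overlaps an antisense gene, AC011611.3, at 1.38 to 3.64 CPM.

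**Figure D2:**
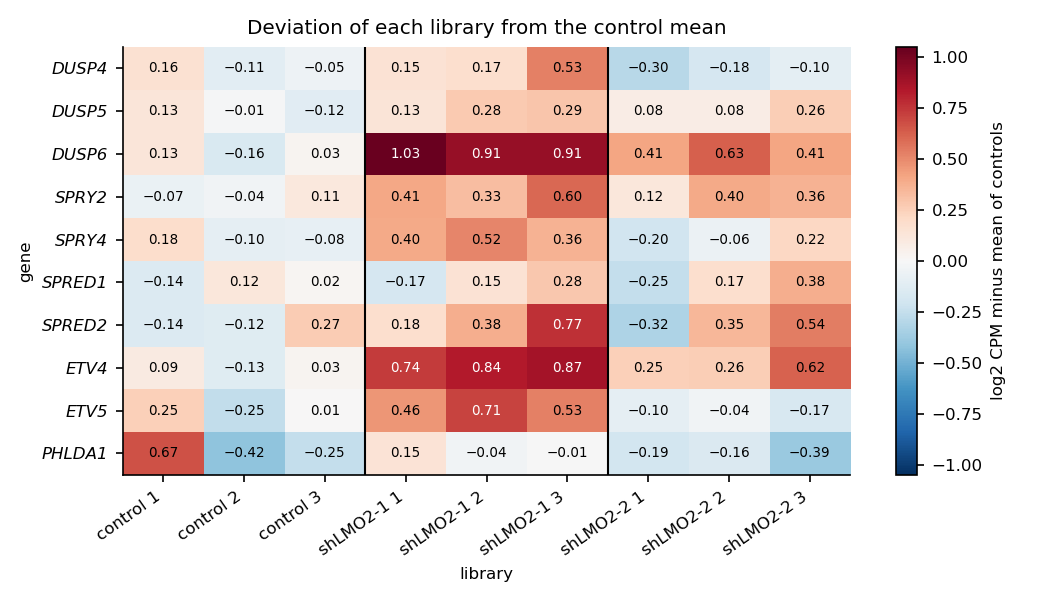
Log2 CPM of each gene in each of the 9 libraries minus the mean of the 3 controls, with red above and blue below the control mean. The shLMO2-1 columns are red for 9 of the 10 genes in each library, while the shLMO2-2 columns mix both colours.

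The 10 genes were also read library by library. In shLMO2-1 replicates 1 to 3, 6, 9 and 9 of the 10 genes lay above all 3 controls, where 27.7%, 27.6% and 31.3% of all tested genes did, and 1, 0 and 0 lay below them (27.5%, 27.6% and 31.5% of all). In shLMO2-2 replicates 1 to 3, 3, 5 and 7 of the 10 lay above (28.3%, 28.2% and 32.1% of all) and 4, 1 and 0 below (26.8%, 27.4% and 31.8% of all). The median deviation from the control mean was 0.29, 0.35 and 0.54 on the log2 scale in the shLMO2-1 libraries and -0.14, 0.13 and 0.31 in the shLMO2-2 libraries. The controls themselves deviated by 0.13, -0.12 and 0.01, so shLMO2-2 replicate 2 lay within the spread of the controls by this measure, replicate 1 just below it and replicate 3 above it. The groups did not overlap, with the hairpin above, for 6 of 10 genes with shLMO2-1 (DUSP5, DUSP6, SPRY2, SPRY4, ETV4 and ETV5) against 14% of all tested genes. With shLMO2-2 this was so for 3 of 10 (DUSP6, SPRY2 and ETV4) against 15.3%. For the same 3 genes all 6 hairpin libraries lay above all controls, against 8.12% of all tested genes.

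**Figure D3:**
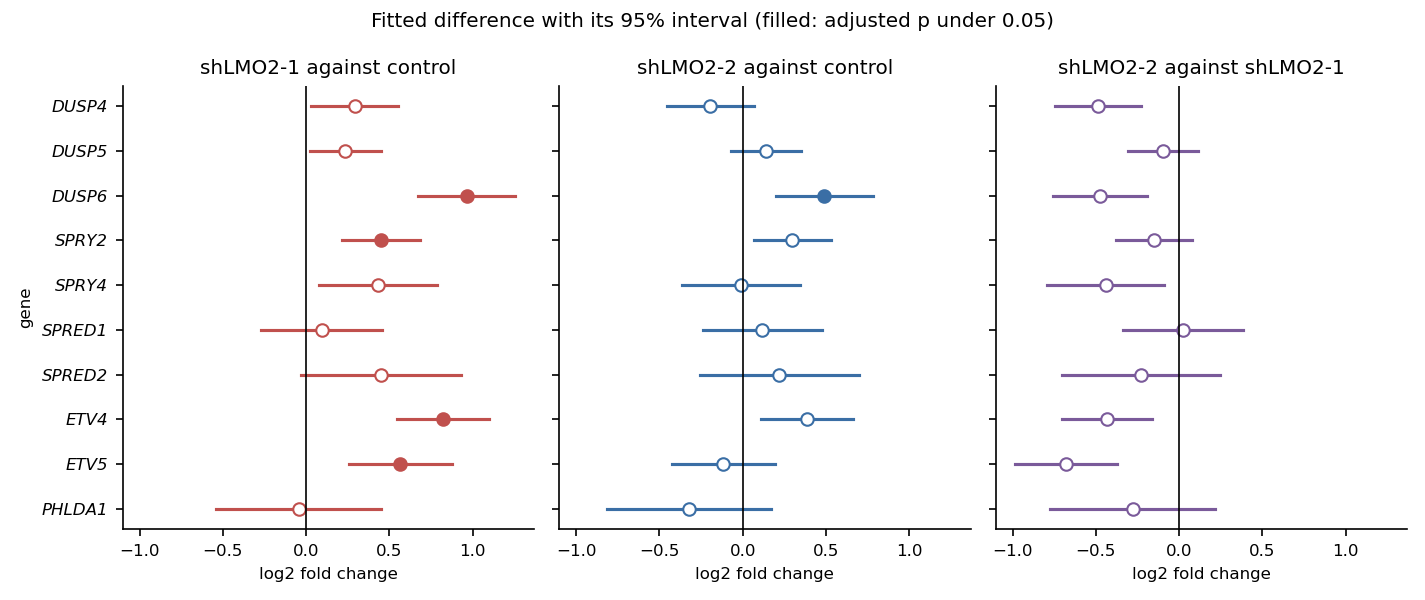
Fitted log2 fold change of each gene (points) with its 95% interval (lines) for each hairpin against control and for shLMO2-2 against shLMO2-1, filled where the adjusted p is under 0.05. In the right panel 9 of 10 points lie left of 0 and none is filled.

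The direct comparison of the hairpins found no called difference among the 10 genes, although 9 of 10 were lower in shLMO2-2. In that comparison 0.768% of all tested genes were called by edgeR (0.422% lower in shLMO2-2), and 0 of the 10. At an unadjusted p under 0.05, edgeR gave 5 of the 10 and 10.6% of all genes. DESeq2 called 2, DUSP4 and ETV5, and limma-voom called 0. Over all genes DESeq2 called 310 and limma-voom 117 in this comparison, where edgeR called 113. The median difference of the 10 genes was -0.36 on the log2 scale, against 0.00 for all genes. ETV5 had the largest difference, -0.68 ± 0.14 SE with an edgeR adjusted p of 0.0564, followed by DUSP4 at -0.49 ± 0.119 (0.112), DUSP6 at -0.47 ± 0.128 (0.158), SPRY4 at -0.44 ± 0.16 (0.34) and ETV4 at -0.43 ± 0.122 (0.18). For 6 of 10 genes (DUSP4, DUSP6, SPRY4, ETV4, ETV5 and PHLDA1) every shLMO2-2 library lay below every shLMO2-1 library, against 9.12% of all tested genes. Without control replicate 1, which enters this contrast only through the shared estimate of spread, ETV5 (-0.68, adjusted p = 0.0187) and DUSP4 (-0.49, adjusted p = 0.0495) passed, and without control replicate 2 ETV5 did (adjusted p = 0.0398).

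To compare levels between genes, CPM was divided by the length of the longest coding transcript in kilobases. In control cells DUSP5 was highest at 9.62 ± 0.838 CPM per kilobase (SD, n = 3), followed by SPRY2 at 9.15 ± 0.608, PHLDA1 at 7.65 ± 3.34, DUSP4 at 5.24 ± 0.526, SPRED2 at 5.02 ± 0.848 and ETV4 at 4.55 ± 0.353. In this upper group every control value of DUSP5 and SPRY2 lay above every control value of DUSP4, SPRED2 and ETV4. The ranges of DUSP5 and SPRY2 overlapped, as did those of DUSP4, SPRED2 and ETV4, so the order within each set is not resolved. PHLDA1 overlapped each of the others except ETV4, which lay below it, so its place among them is not resolved. SPRED1 at 2.62 ± 0.236 and ETV5 at 2.29 ± 0.399 formed a middle pair, and DUSP6 at 1.27 ± 0.128 and SPRY4 at 1.03 ± 0.117 were lowest. DUSP6, the gene with the largest rise, was thus among the least abundant of the 10 in control cells. In shLMO2-1 cells it reached 2.47 ± 0.121, next to SPRED1 at 2.80 ± 0.442, and ETV4 was at 8.02 ± 0.382, overlapping PHLDA1 at 7.40 ± 0.511 and SPRED2 at 6.87 ± 1.47, so its place among these is not resolved.

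The 3 genes of at least 5 CPM whose levels over the 9 libraries were most like those of DUSP6 were CLSTN1 (Pearson r = 0.987), STRN3 (r = 0.983) and TFCP2L1 (r = 0.977), out of 11021 candidates. These values describe likeness over 9 libraries in 3 groups and were picked as the highest, so they carry no test. As a description of genes chosen for this pattern, their log2 fold changes were 0.39, 0.32 and 0.49 with shLMO2-1 and 0.18, 0.14 and 0.23 with shLMO2-2, in the same order. EGFR, the receptor upstream of the pathway, was at 6260, 4784 and 5370 CPM in control, 7516, 7937 and 7068 in shLMO2-1, and 5558, 6486 and 5910 in shLMO2-2. It lay above every control in shLMO2-1 (log2 fold change 0.46, adjusted p = 0.0123) and overlapped the controls in shLMO2-2 (0.13, adjusted p = 0.414). The shLMO2-1 call on EGFR was lost without control replicate 3 or shLMO2-1 replicate 2, at adjusted p of up to 0.0602. For the mean of both hairpins EGFR was higher by 0.29 (edgeR adjusted p = 0.0344), a call lost in 6 of the 9 fits that left out 1 library. Between the hairpins it differed by -0.33 (adjusted p = 0.167), and in those 9 fits this passed only without control replicate 1 (0.0292). The part of EGFR in the rise of the 10 genes was not tested.

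The closest relatives of the 10 genes were called in both directions. Of 14 paralogs listed (other DUSP, Sprouty, SPRED, ETV and PHLDA genes), 12 were tested, and with shLMO2-1 1 rose and 1 fell, where 8.42% of all tested genes were called. SPRY1, another Sprouty inhibitor, went from 3.13 to 4.66 CPM in control to 6.97 to 8.51 in shLMO2-1, a log2 rise of 0.91 ± 0.189 (edgeR adjusted p = 0.0147) that was lost only without shLMO2-1 replicate 3 (adjusted p = 0.0618). In shLMO2-2 SPRY1 was at 4.22 to 5.66 CPM and overlapped the controls (0.33, adjusted p = 0.313). DUSP1, a nuclear phosphatase that acts mainly on the stress kinases p38 and JNK, fell from 15.8 to 19.6 CPM in control to 7.59 to 13.1 in shLMO2-1 (-0.73 ± 0.202, adjusted p = 0.0482) and was at 9.87 to 14.2 CPM in shLMO2-2 (-0.54 ± 0.198, adjusted p = 0.115). All 6 hairpin libraries lay below all controls for DUSP1, and in the mean of both hairpins it fell (-0.64, adjusted p = 0.0324). The shLMO2-1 call on DUSP1 was lost in 7 of the 9 fits that left out 1 library (adjusted p of up to 0.137), and held without control replicate 1 or shLMO2-2 replicate 1. The call on the mean was lost in 4 fits, which left out control replicate 2, control replicate 3, shLMO2-2 replicate 1 and shLMO2-2 replicate 2 in turn (up to 0.12). In shLMO2-2 cells 1 of the 12 was called (8.97% of all tested genes), DUSP14, which was lower by -0.32 (adjusted p = 0.0433) and kept its call in 1 of those 9 fits, that without control replicate 2 (otherwise up to 0.135). It was named after its values were seen. The median log2 fold change of the 12 was 0.09 with shLMO2-1 and 0.10 with shLMO2-2.

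Other genes known to be induced by ERK were called in both directions across the comparisons. Of 31 listed, 27 were tested. With shLMO2-1 3 rose and none fell, with shLMO2-2 none rose and 2 fell, and in the mean of both 2 rose and 3 fell. Over all tested genes 8.42%, 8.97% and 12.4% were called in these comparisons. CCND1, the cyclin that drives entry into the cell cycle, was at 148 to 191 CPM in control, 214 to 228 in shLMO2-1 and 178 to 200.1 in shLMO2-2, with a log2 rise of 0.37 with shLMO2-1 (edgeR adjusted p = 0.0284). KCNN4, a calcium-activated potassium channel, was at 116 to 119 CPM in control, 142 to 159 in shLMO2-1 and 129 to 150 in shLMO2-2, above the controls in all 6 hairpin libraries (0.36 with shLMO2-1, adjusted p = 0.0115; 0.30 for the mean, adjusted p = 0.0112). The CCND1 call with shLMO2-1 was lost in 5 of the 9 fits that left out 1 library (adjusted p of up to 0.1), those without control replicates 2 or 3 or any shLMO2-1 library. Its call on the mean (0.27, adjusted p = 0.046) held only without control replicate 1 and was otherwise lost, at up to 0.135. KCNN4 kept its shLMO2-1 call in all 9 and lost that on the mean without control replicate 3 (adjusted p = 0.053). MAFF, a small basic-leucine-zipper factor, was at 29.6 to 36.4 CPM in control, 22.7 to 27.2 in shLMO2-1 and 19.8 to 20.9 in shLMO2-2. MAFF fell with shLMO2-2 by -0.65 (edgeR adjusted p = 0.00419) and in the mean of both by -0.51 (adjusted p = 0.0051). Both MAFF calls held in all 9 fits. With shLMO2-1 its log2 fold change was -0.36 and was not called (adjusted p = 0.0578).

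EGR3, an immediate-early zinc-finger factor, was lower in the mean of both hairpins (-1.18, edgeR adjusted p = 0.0369), but without control replicate 1 the value for EGR3 was -0.63 with an adjusted p of 0.205. The EGR3 call was also lost without shLMO2-1 replicates 2 or 3 or any shLMO2-2 library. MCL1, an inhibitor of cell death, was lower in the mean by -0.19 (adjusted p = 0.0341), a call that held in 3 of the 9 fits, those without control replicate 2, shLMO2-1 replicate 3 or shLMO2-2 replicate 3 (otherwise up to 0.126). TFPI2, a secreted protease inhibitor, was higher with shLMO2-1 (0.58, adjusted p = 0.0456), and ERRFI1, a feedback inhibitor of EGFR itself, was lower with shLMO2-2 (-0.27, adjusted p = 0.0464). The TFPI2 call held only without control replicate 1 (otherwise up to 0.14) and the ERRFI1 call only without control replicate 2 (otherwise up to 0.136), and both genes were named after their values were seen. The median log2 fold change of the 27 genes was 0.09 with shLMO2-1 and -0.06 with shLMO2-2, against 0.44 and 0.13 for the 10 genes.

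**Figure D4:**
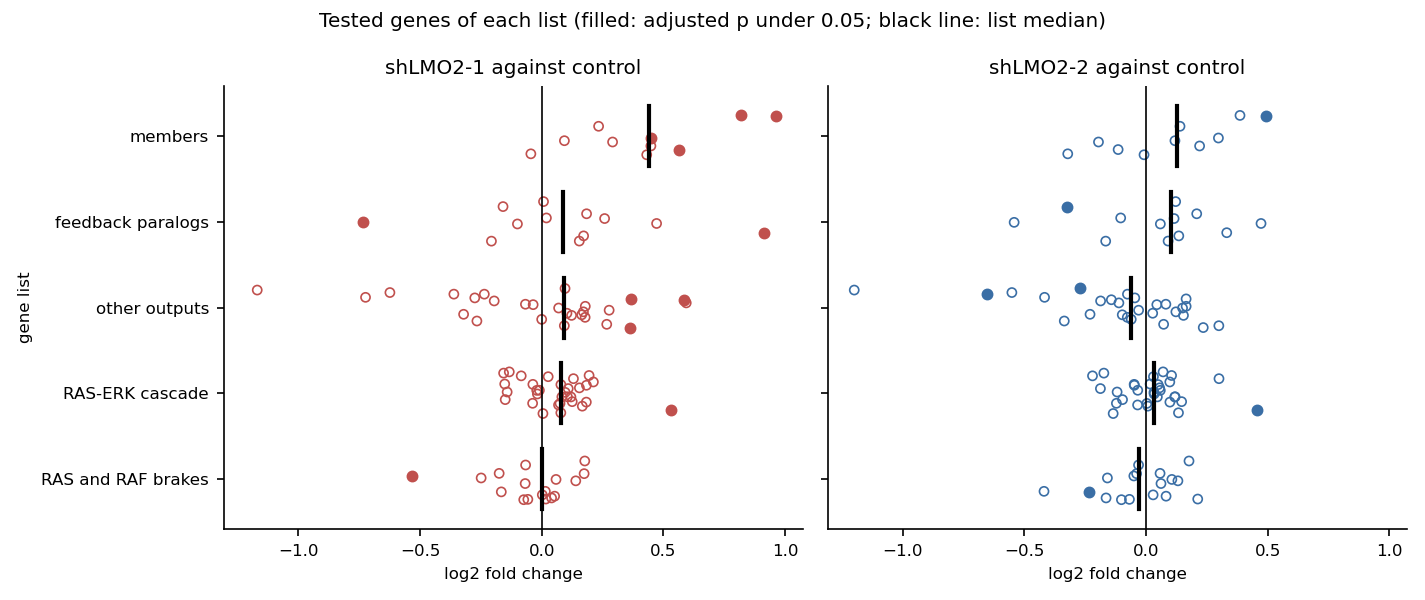
Log2 fold change of every tested gene in each list against control, for shLMO2-1 (left) and shLMO2-2 (right), filled where the adjusted p is under 0.05, with the list median as a black line. The median of the 10 members in shLMO2-1, 0.44, lies to the right of those of the other 4 lists.

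Transcripts of the pathway's own proteins were examined next. All 31 listed genes of the cascade, from adaptors and RAS to MEK, ERK and their direct substrates, were tested, and in each comparison with control 1 rose and none fell, where 8.42%, 8.97% and 12.4% of all tested genes were called. That gene was RPS6KA2, which encodes an RSK kinase activated directly by ERK. RPS6KA2 was at 59.2 to 68.2 CPM in control, 90.3 to 94.8 in shLMO2-1 and 83.1 to 90.1 in shLMO2-2, with log2 rises of 0.53 ± 0.07 (edgeR adjusted p = 0.00139) and 0.46 ± 0.0696 (adjusted p = 0.00328). Both calls held in all 9 fits that left out 1 library. The median of the 31 genes was 0.08 with shLMO2-1 and 0.03 with shLMO2-2. Among 17 other brakes of RAS and RAF, such as the RAS-inactivating proteins, none rose and 1 fell in each comparison with control, against the same shares of all genes. With shLMO2-1 it was RASA3, a RAS GTPase-activating protein (-0.53 ± 0.111, adjusted p = 0.0154), named after its values were seen. The RASA3 call was lost without control replicate 3, shLMO2-1 replicate 2 or shLMO2-1 replicate 3, at adjusted p of up to 0.0679. With shLMO2-2 it was PEA15, which holds ERK in the cytoplasm (-0.24 ± 0.0522, adjusted p = 0.0204). PEA15 was at 150 to 152 CPM in control, 134 to 135 in shLMO2-1 and 125 to 130 in shLMO2-2, and its shLMO2-2 call was lost without control replicate 3, shLMO2-2 replicate 2 or shLMO2-2 replicate 3, at adjusted p of up to 0.0819.

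The promoters of the 10 genes were searched on both strands for CCGGAA (an ETS core with flanking bases), TGANTCA (AP-1), TGACGTCA (CREB) and a loose form of the CArG box, the core of the serum response element, with any bases in its middle. RefSeq windows of 250 bases before to 50 after the start (GRCh38.p14) were found for 6 of the 10: DUSP6, SPRY2, SPRY4, SPRED1, SPRED2 and PHLDA1. The DUSP6 window held none of the 4 motifs. The loose CArG box stood in at least 1 window of each of the other 5 genes, with 6 matches in 1 SPRY2 window and 5 in another, 2 each in SPRY4, SPRED1 and SPRED2, and 1 in PHLDA1. The remaining SPRY2 window and 1 SPRED2 window held no such match. CCGGAA stood in 1 of the 3 SPRY2 windows and in the PHLDA1 window, where it lies on the opposite strand and so reads TTCCGG, and TGANTCA stood in 1 of the 2 SPRED2 windows, at bases -6 and 35. The SPRED2 match before the start is shown. These stretches, chosen after the values were seen, show the matches in capitals, on the gene's strand, with positions counted from the RefSeq start. The SPRY2 stretch lies upstream of the gene as annotated in GENCODE 29, and the other 2 lie within the annotated spans of their genes.
SPRY2 (GRCh38.p14, chr13:80341252-80341279, minus strand, match from base -142): ccctgcctcctCCGGAAaggcgagggcg
PHLDA1 (GRCh38.p14, chr12:76031849-76031876, minus strand, match from base -89): aggagaggagtTTCCGGggctcgggtcc
SPRED2 (GRCh38.p14, chr2:65366767-65366795, minus strand, match from base -6): taaccctcggaTGACTCAtccggtacaat
Of 35116 promoter windows of the same length, 17.2% held CCGGAA, 7.71% TGANTCA, 1.85% TGACGTCA and 78.2% the loose CArG box. These shares are per window, while SPRY2 had 3 windows and SPRED2 had 2, so they cannot be set against counts of genes. The part of these motifs in the levels of the genes was not tested.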

How the data were processed

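RNA was measured in 9 poly(A)-selected libraries, 3 in each of 3 groups taken from the plasmid named in the labels. The authors deposited estimated counts per gene symbol, not normalized. The submitters' processing notes list Salmon 0.12, DESeq2 1.22.2 and GRCh38.p12, without their roles. Salmon divides reads among matching transcripts, so 11.7% to 12.8% of values per library were not whole. The way transcripts were summed to genes and the use of strand are not given in the sources used here.

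Estimated counts were rounded and tested with edgeR 4.0.16 (R 4.3.3; TMM, quasi-likelihood F-test, filterByExpr with minimum count 10 and minimum total 15, LMO2 added back), with all 9 libraries, 3 groups and no covariate. Every adjusted p-value of this fit is Benjamini-Hochberg over 14709 genes, called under 0.05. Each alternative fit was adjusted over the genes tested in it, which differ where the filter or the libraries differ. SE was derived from the log2 fold change and F. Deviations by library used log2(CPM + 0.1). Intervals cover the spread between libraries, and no molecular identifiers are recorded.

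The members and lists were chosen with earlier results of these data known. All 10 members and LMO2 were named, with up to 4 called genes per list, direction and contrast by smallest p (mean of both hairpins, or between hairpins), and the 3 genes most like the called member with the largest change. Alternatives were 3 other scalings, 2 other filters, DESeq2 1.42.0, limma-voom (limma 3.58.1), a replicate block, only the groups compared, and leaving out each library. Their use for genes outside the 10 was added after seeing the data. Positions and lengths are from GENCODE 29 and promoters from RefSeq, matched by symbol.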

Additional observations from a re-analysis of the deposited data

Results flagged for a closer look

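Among the 10 genes and the other genes named with a call in the report, 4 had all 3 shLMO2-1 libraries above the control mean and all 3 shLMO2-2 libraries below it. IER3, an output gene with no call, had the same pattern and a difference of -0.26 (adjusted p = 0.101). The difference itself, shLMO2-2 minus shLMO2-1 on the log2 scale, was -0.49 for DUSP4 (edgeR adjusted p = 0.112), -0.68 for ETV5 (0.0564), -0.37 for ERRFI1 (0.0557) and -0.73 for TFPI2 (0.0737), so none passed the threshold. Without control replicate 1 the 4 differences had adjusted p of 0.0495, 0.0187, 0.013 and 0.00363. That library enters the comparison of the hairpins only through the shared estimate of spread. Groups of 3 libraries were not screened for single outlying libraries.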

How the results depend on the processing

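Of 710 recomputed values on the 10 genes, 652 kept direction and side of the threshold, 26 lost a call, 16 gained a call and 16 reversed, and the causes were not tested unless stated. Members called with shLMO2-1 were 2 to 5 with 1 library left out. With shLMO2-2 they were 0 under total-count scaling, 0 with no filter on low counts, 0 with only the groups compared, and 0 to 1 with 1 library left out. Between the hairpins they were 2 with no filter, 2 by DESeq2, 1 with only the groups compared, and 0 to 2 with 1 library left out. Over all genes, 695 were called with shLMO2-1 and 776 with shLMO2-2 when only the groups compared were fitted, which uses fewer libraries. With 1 library left out these counts were 546 to 1397 and 494 to 1243, and 947 to 1592 for the mean of both. Between the hairpins they were 378 with no filter, 310 by DESeq2, 189 with only the groups compared, and 38 to 239 with 1 library left out.

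Signs turned for differences near 0, and for PHLDA1 also for larger ones when control replicate 1 was left out. PHLDA1 then turned from -0.32 to 0.085 with shLMO2-2 and from -0.18 to 0.22 for the mean. Its shLMO2-1 value of 0.36 without that library, counted here as reversed, also passed the threshold (edgeR adjusted p = 0.0382). PHLDA1 with shLMO2-1 was 0.0473 by limma-voom and -0.24 to 0.36 with 1 library left out, and its ranges were -0.52 to 0.085 with shLMO2-2 and -0.38 to 0.22 for the mean. SPRED1 ranged from -0.00774 to 0.22 with shLMO2-1, from -0.0353 to 0.27 with shLMO2-2 and from -0.12 to 0.18 between the hairpins. With shLMO2-2, SPRY4 ranged from -0.14 to 0.0796, ETV5 from -0.23 to 0.00903, TFPI2 from -0.28 to 0.0878 and RASA3 from -0.14 to 0.0555, and DUSP4 for the mean from -0.0231 to 0.12.

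Libraries with the same replicate number in different groups correlated in their deviations from the group means by -0.06 to 0.30 (mean 0.15). The value was above 0.1 in 6 of 9 such pairs. Libraries with unlike numbers correlated by -0.31 to 0.18 (mean -0.07), above 0.1 in 2 of 18 pairs. Of the 9 libraries, 8 correlated best with their own number, so libraries of the same number were more alike. The source of this likeness was not tested. The labels name no shared batch, and the fit reported above did not use the numbers. With a replicate block, 2214, 2377, 3024 and 257 genes were called with shLMO2-1, with shLMO2-2, for the mean and between the hairpins. Members called were then 5 with shLMO2-1 (SPRED2 added, adjusted p = 0.0215), 4 for the mean (SPRED2 added, 0.0373), 3 with shLMO2-2 (SPRY2 at 0.0368 and ETV4 at 0.0381 added) and 2 between the hairpins (DUSP4 and ETV5), and PHLDA1 with shLMO2-1 was at 0.00348.

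Depth limited the scarcest genes: DUSP6 and SPRY4 rested on as few as 97 and 90 counts in a library, and LMO2 on 1.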
